A study of Gallus gallus with 88 samples.

Results

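Hind muscle (M. gastrocnemius) of broiler chicken embryos was compared between embryonic day (ED) 13 and ED10 under unchanged incubation. The members were 16 of the 88 arrays of the series, chosen by their labels as the control embryos at both stages. The C13 group held 8 embryos sampled at ED13, and the C10 group held 8 embryos sampled at ED10. Eggs of both groups stayed at 37.8 °C and at the same relative humidity, so that the groups carried no treatment and differed by stage. Each array held the muscle RNA of 1 embryo, and no embryo was sampled at both stages. Eggs came from a commercial broiler line (Cobb). Used for comparison were H13 and H10 embryos, warmed at 38.8 °C during ED10–13 and ED7–10 with a higher humidity, and L13 and L10 embryos, cooled at 36.8 °C during ED10–13 and ED7–10, with 8 arrays in each of these 4 groups.

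Skeletal muscle forms when dividing precursor cells leave the cell cycle, fuse into multinucleated myotubes and assemble myosin and actin into sarcomeres. In the chicken leg a first generation of primary fibres is followed by secondary fibres that grow along them, and nerve endings, capillaries, fat cells and connective tissue are laid down around the fibres. Myosin heavy chains, light chains and troponins exist as isoforms that replace each other as fibres mature.

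The values were normalised signals on a log2 scale, so that a difference of 1 means a doubling of the signal. Array medians lay between 7.94 and 8.29. The first principal component of the 16 arrays held 29% of the variance and separated all C13 from all C10 arrays. The second held 20.5% and followed the mean of 18 W-linked probe sets, which was above 8.9 in 4 C13 and 4 C10 arrays (females) and below 4.9 in the other arrays of each group. The animal numbers of the controls fall into a lower and a higher series, with 4 C13 and 4 C10 arrays in each. Across all probe sets, the differences within the 2 series correlated with r = 0.799 (a description over probe sets, which are not independent). Arrays C13 39 and C13 40 had skin marker means of 6.99 and 6.50, against 9.26 to 10.22 in the other C13 arrays and 8.05 to 9.60 in C10 arrays. Array C10 65 had the lowest mean of the thick filament, thin filament and Z-disc lists among C10 arrays, and the highest mean of tendon markers (10.18) and interstitial matrix genes (11.38), with a cartilage marker mean of 9.30. The part of these tissues in its muscle values was not tested. With C13 39 and C10 65 left out the number of probe sets past the threshold was 5570, and with C13 39 and C13 40 left out it was 5663.

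Of 20706 probe sets, 5839 (28.2%) differed between C13 and C10 (limma, Benjamini-Hochberg adjusted p under 0.05). Of the tested probe sets 11.8% rose in C13 and 16.4% fell. A difference of at least 1 together with the adjusted p was found for 578 probe sets (2.79%), of which 406 rose and 172 fell. The larger changes were therefore mostly increases, with 142 probe sets up and 12 down by at least 2. With probe sets of a mean below 9.766 (95th percentile of background probe sets) left out, 132 passed with a difference of at least 1. Their split by direction is not given here. Within the lower number series alone 2282 probe sets passed the threshold and within the higher series alone 1934, each with 4 arrays per group. Taking 1 probe set per named gene, 14.5% of 11528 genes rose and 20.4% fell, the median difference over all genes was -0.025, and the ranges of C13 and C10 did not overlap for 10.6% of genes. These shares are the background for the gene lists below. In bulk tissue, fewer cells of a type and less RNA per cell cannot be told apart. Several sarcomere genes have close paralogs, and probe sets of the MYH1 genes in particular may share signal.

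The thick filament held the largest change among the contractile proteins. Of 24 measured thick filament genes, 17 rose and 2 fell (median difference 0.62). The fast skeletal myosin heavy chain MYH1C lay between 11.11 and 12.18 (median 11.47) in C13 arrays, against 6.11 to 7.97 (median 6.76) in C10 arrays. It rose by 4.62 ± 0.25 (SE, adjusted p = 3.91e-18), with no overlap of the groups. Its C10 values lay below 9.766, the 95th percentile of background probe sets, so that the difference of 4.62 is one of signals and not a measured fold of RNA. It was 4.44 higher within the lower and 4.80 higher within the higher number series. MYH1B, of the same family, had values of 11.46 to 11.89 (median 11.68) in C13 arrays and 9.51 to 9.99 (median 9.75) in C10 arrays (difference 1.91 ± 0.14, adjusted p = 1.94e-14). The other measured members had differences of 1.31 for MYH1A, 0.54 for MYH1E, 0.49 for MYH1G and 0.46 for MYH1D, and the ranges of C13 and C10 overlapped for MYH1E and MYH1G. MYH1G had 0.37 (adjusted p = 0.0529) with C13 39 and C13 40 left out. MYH13 rose by 0.97 and MYH7, the slow and cardiac heavy chain, by 0.85.

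Going the other way were an embryonic and a cardiac form of myosin. MYL4, the essential light chain of embryonic and atrial muscle, lay between 9.96 and 10.75 (median 10.38) in C13 arrays, below the 11.23 to 11.57 (median 11.40) of C10 arrays. It fell by 1.08 ± 0.10 (adjusted p = 8.63e-12). MYH15, a ventricular heavy chain in the chicken heart, fell by 1.23, with 7 of 8 C13 arrays below the lowest C10 array. The light chain MYL3 of slow and ventricular muscle rose by 0.69, while MYL2 had a difference of -0.19 (adjusted p = 0.655).

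Proteins that bind and align myosin rose with it. MYBPC1, the slow-type myosin-binding protein C, had values of 12.33 to 12.79 (median 12.59) in C13 arrays and 10.35 to 11.21 (median 10.98) in C10 arrays (difference 1.68 ± 0.13, adjusted p = 1.11e-13). The M-band proteins MYOM2, MYOM3 and MYOM1 rose by 1.38, 1.17 and 0.86, in each case with all C13 above all C10 arrays. Cardiac MYBPC3 had a difference of -0.26 (adjusted p = 0.23).

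**Figure D1:**
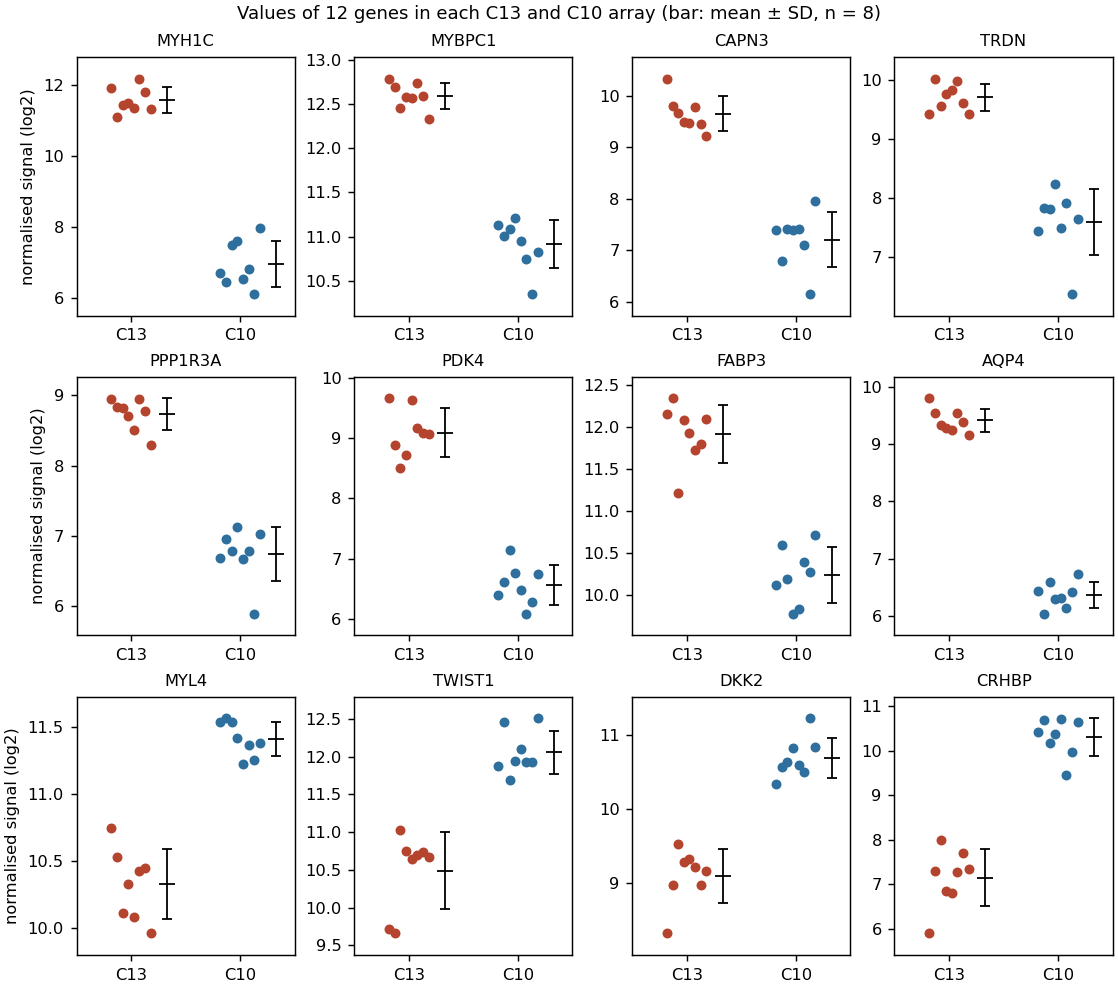
Normalised log2 signal (y axes, each with its own range) of 12 genes in 8 C13 arrays (left, red) and 8 C10 arrays (right, blue), 1 point per embryo, with the group mean ± SD as a bar. The groups do not overlap in any panel: MYH1C lies at 11.11 to 12.18 in C13 and 6.11 to 7.97 in C10, whereas MYL4, TWIST1, DKK2 and CRHBP are lower in C13.

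Of 15 thin filament genes 9 rose and none fell (median 0.36), and the mean of the list lay between 10.87 and 11.21 in C13 arrays and between 10.13 and 10.62 in C10 arrays. LMOD2, a leiomodin that sets thin filament length, had values of 9.44 to 10.02 (median 9.66) in C13 arrays and 6.85 to 8.23 (median 7.94) in C10 arrays, a rise of 1.94 ± 0.18 (adjusted p = 1.12e-11). The troponins, which switch the filament on when calcium binds, rose in fast and slow forms: the fast subunits TNNI2, TNNC2 and TNNT3 by 1.13, 1.12 and 1.04, and the slow subunit TNNC1 by 1.12. The slow subunit TNNI1 rose by 0.36 ± 0.11 (adjusted p = 0.0115), with overlapping groups, and did not pass the threshold with C13 39 and C13 40 left out (0.28, adjusted p = 0.0661). Skeletal actin ACTA1 lay between 13.75 and 14.05 in C13 arrays and between 13.25 and 13.60 in C10 arrays (difference 0.54, adjusted p = 1.85e-08). Cardiac actin ACTC1, the main actin of early embryonic muscle, had a difference of 0.066 (adjusted p = 0.397), and all its values lay between 13.21 and 13.59. XIRP1, an actin-binding protein, rose by 0.68 on the probe set that stands for it, and its other probe set had a difference of -0.03.

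The Z-disc, where thin filaments and titin are anchored, had 23 of 31 members that rose (74.2%) and none that fell, with a median of 0.66. The mean over the list lay between 9.78 and 10.16 in C13 arrays and between 8.85 and 9.48 in C10 arrays. CAPN3, a muscle calpain bound to titin, was at 9.22 to 10.34 (median 9.59) in C13 arrays and at 6.15 to 7.95 (median 7.39) in C10 arrays, and rose by 2.46 ± 0.23 (adjusted p = 1.08e-11). MURC, a cavin of muscle caveolae, was at 10.05 to 10.59 (median 10.38) in C13 arrays and at 8.14 to 8.86 (median 8.58) in C10 arrays (difference 1.77 ± 0.11, adjusted p = 7.42e-16). MYOZ1, which ties calcineurin to the Z-disc of fast fibres, rose by 1.61. For these 3 genes every C13 array lay above every C10 array. Assembly and anchoring proteins followed, with rises of 1.51 for NRAP, 1.42 for CSRP3 (muscle LIM protein), 1.1 for α-actinin ACTN2 and 0.82 for titin (TTN). The small heat shock proteins HSPB3 and HSPB1 rose by 1.17 and 0.98, the muscle ubiquitin ligase TRIM63 by 0.66 and the thin filament stabiliser KLHL40 by 0.76. With C13 39 and C10 65 left out 19 members rose and 2 fell.

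Proteins that couple excitation to calcium release rose in 9 of 15 cases and fell in 1 (median 0.55). TRDN, triadin of the calcium release complex, had values of 9.43 to 10.03 (median 9.69) in C13 arrays and 6.38 to 8.24 (median 7.73) in C10 arrays (difference 2.11 ± 0.22, adjusted p = 2.03e-10). The voltage sensor CACNA1S rose by 1.01, the junctional protein JPH2 by 0.86 and the calcium store protein CASQ2 by 0.84. The signal of PVALB, the calcium buffer of fast fibres, went the other way. It was at 5.96 to 7.34 (median 6.68) in C13 arrays and at 7.35 to 8.05 (median 7.70) in C10 arrays, and fell by 1.07 ± 0.22 (adjusted p = 0.00013). All PVALB values lay below 9.766, the 95th percentile of background probe sets, so that a change of its RNA is uncertain. The same limit holds for other genes named in this report whose values all lay below that level, among them PPP1R3A, PDK4, LIG1, CDKN2C and FST. With dim probe sets left out, 5 members of the excitation-contraction coupling list rose and 0 fell. ATP2A2, the calcium pump of slow and cardiac muscle, had a difference of -0.058 (adjusted p = 0.561).

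At the neuromuscular junction 3 of 17 genes rose and 1 fell (median 0.12). The share that rose (17.6%) was close to the 14.5% of all genes, and the share that fell (5.88%) was below the 20.4% of all genes. The rising genes were COLQ, the collagen tail of acetylcholinesterase (1.01), CHRNG, the fetal γ subunit of the acetylcholine receptor (0.83), and RAPSN, which clusters the receptor (0.59). For each of them all C13 arrays exceeded all C10 arrays. CHRNG had values of 10.63 to 11.36 (median 10.87) in C13 arrays and 9.55 to 10.50 (median 10.13) in C10 arrays. The δ subunit CHRND of the same receptor did not pass the test (0.10, adjusted p = 0.664).

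The dystrophin complex, which links the fibre's cytoskeleton to the basement membrane, and membrane repair had 8 of 18 genes that rose and 2 that fell (median 0.18). Dystrophin (DMD) was at 10.52 to 10.90 (median 10.71) in C13 arrays and at 8.93 to 9.89 (median 9.66) in C10 arrays, a rise of 1.12 ± 0.11 (adjusted p = 4.29e-11). Dystroglycan DAG1 rose by 0.94 and the laminin chain LAMA2, its ligand in muscle basement membrane, by 0.51. Sarcospan SSPN rose by 0.80. ANXA1, an annexin of membrane repair, rose by 1.35.

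Transcription factors of the myogenic programme moved both ways, with 8 of 23 up and 5 down (median -0.018). C10 65 had a list mean of 9.79, against 10.20 to 10.28 in the other C10 arrays, and with it and C13 39 left out 5 rose and 6 fell. The cofactor EYA4 lay between 10.15 and 10.66 (median 10.34) in C13 arrays and between 9.13 and 9.92 (median 9.51) in C10 arrays, and rose by 0.87 ± 0.12 (adjusted p = 9.45e-08). MEF2A, which activates contractile genes, rose by 0.45, and MYF6, the late myogenic factor, by 0.49 with overlapping groups. MEF2C rose by 0.28 (adjusted p = 0.0179), which missed the threshold under quantile normalisation and without C13 39 and C13 40. The myogenic factors MYOD1 and MYOG and the satellite cell factor PAX7 did not pass the test, with differences of -0.17 (adjusted p = 0.375), 0.19 (adjusted p = 0.322) and -0.023 (adjusted p = 0.93). Other factors of the list fell. TWIST1, an inhibitor of MYOD1 and MEF2 activity in mesenchyme, was at 9.66 to 11.03 (median 10.68) in C13 arrays and at 11.69 to 12.51 (median 11.93) in C10 arrays (difference -1.56 ± 0.23, adjusted p = 7.98e-07). ID4, an inhibitor of helix-loop-helix factors, fell by 1.0 and MEOX1, of the early somite, by 0.72. The lowest TWIST1 values, 9.72 and 9.66, belonged to C13 39 and C13 40, and without these arrays the difference was -1.30.

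Metabolic genes were described in 3 lists. In glycolysis, glycogen and creatine kinase 10 of 24 genes rose and 4 fell (median 0.12). PPP1R3A, which targets a phosphatase to glycogen in muscle, was at 8.29 to 8.95 (median 8.80) in C13 arrays and at 5.89 to 7.12 (median 6.79) in C10 arrays (difference 1.99 ± 0.20, adjusted p = 1.09e-10). The muscle form of phosphofructokinase, PFKM, rose by 1.37, while the platelet form PFKP fell by 0.28. AMP deaminase AMPD1 rose by 1.29, mitochondrial creatine kinase CKMT2 by 0.80 and glycogenin GYG1, the primer of glycogen, by 0.78. The brain form of glycogen phosphorylase, PYGB, fell by 0.42 (adjusted p = 0.0229), with adjusted p = 0.0636 without C13 39 and 0.0787 without C13 40. It also missed the threshold with the number series as a term (adjusted p = 0.0686) and in a fit of the 16 arrays alone (adjusted p = 0.0611).

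Fatty acid and citrate cycle enzymes rose in 19 of 37 cases and fell in 1 (median 0.16). PDK4, a kinase that turns off pyruvate dehydrogenase, was at 8.50 to 9.66 (median 9.08) in C13 arrays and at 6.09 to 7.14 (median 6.55) in C10 arrays, and rose by 2.53 ± 0.20 (adjusted p = 1.99e-13). FABP3, the fatty acid binding protein of heart and muscle, was at 11.21 to 12.34 in C13 arrays and at 9.78 to 10.71 in C10 arrays (difference 1.68 ± 0.15, adjusted p = 8.41e-12). In both genes the groups were separate. The acyl-CoA synthetase ACSL1 rose by 1.0 and PPARGC1A, a coactivator of mitochondrial genes, by 0.82. The respiratory chain and ATP synthase had 9 of 46 up and 2 down (median 0.11). These counts were 15 up and 8 down with array weights, 6 up and 4 down after quantile normalisation, 5 up and 2 down without C10 64, and 7 up and 4 down without C10 65. The largest rise of this list was NDUFS6 with 0.83, followed among the called genes by NDUFV3 with 0.32 and UQCRC1 with 0.27. Ribosomal proteins had 1 of 47 up (RPL13, 0.41) and 5 down (RPS29, -0.60, with the largest fall), with a median of -0.054. The count that fell depended on scaling and arrays, with 19 after quantile normalisation, 7 with centred arrays and 8 without C10 65.

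**Figure D2:**
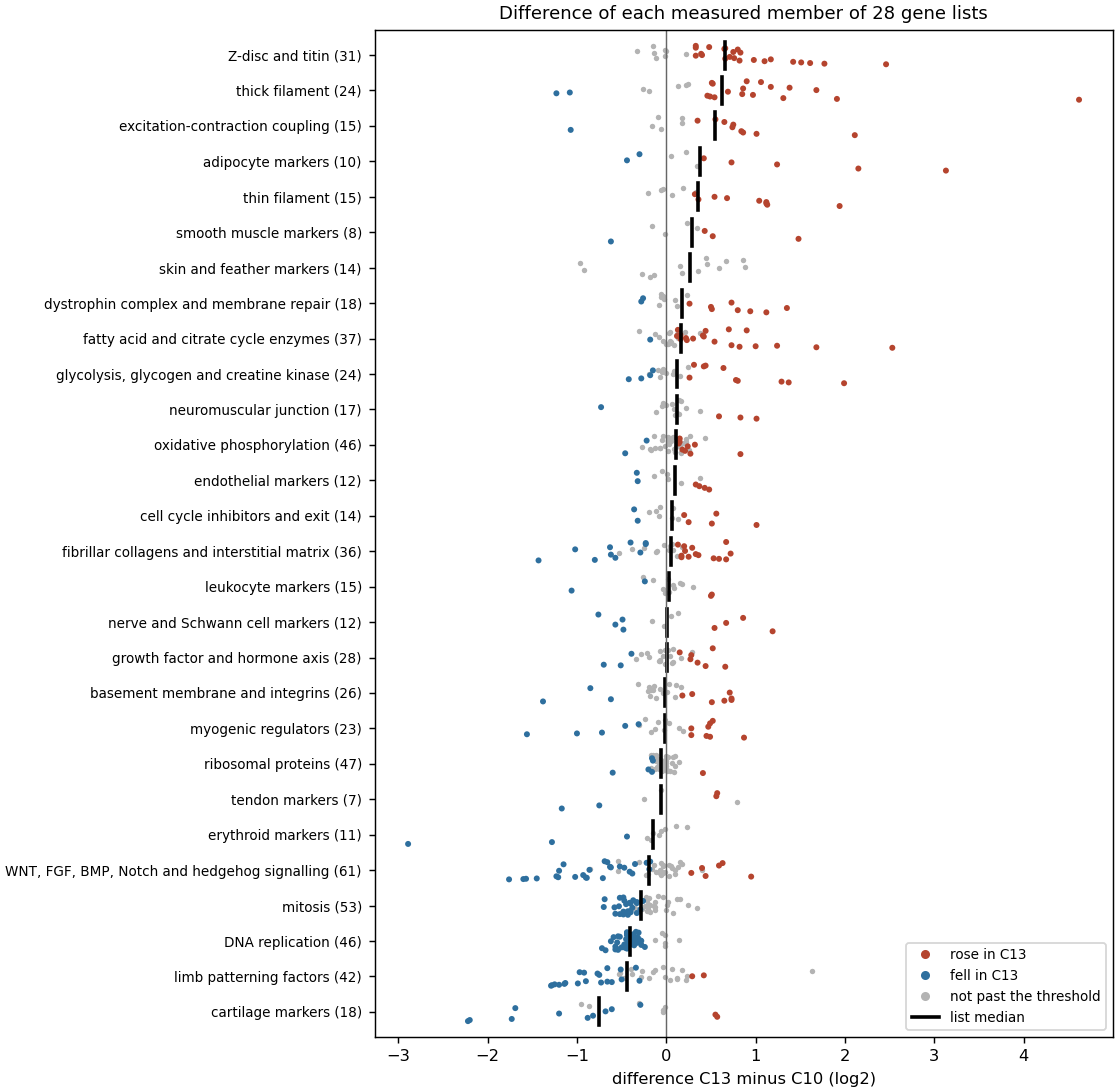
Difference C13 minus C10 (log2, x axis) of each measured member of 28 gene lists (y axis, number of members in brackets), ordered by the list median (black bar), with red for members that rose, blue for those that fell and grey for the rest. Z-disc genes (median 0.66) stand at the top and cartilage markers (median -0.75) at the bottom, while most DNA replication genes lie in a narrow band around -0.41.

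Genes of DNA replication and mitosis that passed the test were lower in C13. Of 46 DNA replication genes 39 fell (84.8%) and none rose, with a median of -0.41, and of 53 mitosis genes 26 fell and none rose (median -0.28). The mean over the replication genes lay between 9.08 and 9.38 in C13 arrays and between 9.46 and 9.89 in C10 arrays. The DNA ligase LIG1 was at 8.12 to 8.76 (median 8.47) in C13 arrays and at 9.03 to 9.23 (median 9.10) in C10 arrays (difference -0.68 ± 0.068, adjusted p = 8.45e-11). The helicase subunits MCM5 and MCM3 fell by 0.57 and 0.55, the flap endonuclease FEN1 by 0.54, ribonucleotide reductase RRM1 by 0.44 and cyclin CCNE2 by 0.72. For 23 replication genes no C13 array reached the lowest C10 array. Among mitosis genes, topoisomerase TOP2A was at 11.05 to 11.30 (median 11.20) in C13 arrays and at 11.54 to 11.75 (median 11.70) in C10 arrays, a fall of 0.48 ± 0.047 (adjusted p = 6.24e-11). The checkpoint protein MAD2L1 fell by 0.57, the condensin NCAPD2 by 0.52 and the cyclin-dependent kinase CDK1 by 0.43. MKI67, a common marker of dividing cells, had a difference of 0.077 (adjusted p = 0.669) on the probe set that stands for it, and its 4 other probe sets had -0.21, 0.09, 0.40 and 0.30. Centring the arrays or quantile normalisation gave 36 mitosis genes that fell.

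The list of cell cycle inhibitors and exit genes had 5 of 14 up and 2 down. It also names cyclins such as CCND1 and CCNG1, so these are not counts of inhibitors alone. CDKN2C, an inhibitor of the G1 kinases, was at 7.91 to 8.74 (median 8.32) in C13 arrays and at 6.65 to 7.85 (median 7.45) in C10 arrays (difference 1.01 ± 0.17, adjusted p = 5.74e-06). CDKN1B (p27) rose by 0.51 and the antiproliferative BTG1 by 0.25, each without overlap of the groups. RBL2 (p130) fell by 0.32.

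The extracellular matrix changed in both directions. Of 36 interstitial matrix genes 14 rose and 10 fell (median 0.055), with 8 that rose after quantile normalisation and 9 with the number series as a term. COL6A3, a collagen VI chain of the fibre surroundings, was at 11.34 to 11.67 (median 11.47) in C13 arrays and at 10.59 to 11.26 (median 10.79) in C10 arrays, and rose by 0.67 ± 0.08 (adjusted p = 7.3e-09). Periostin POSTN rose by 0.59 and the collagen-binding proteoglycan lumican (LUM) by 0.53. In contrast tenascin C (TNC), a matrix protein of early mesenchyme, was at 7.25 to 9.25 (median 8.37) in C13 arrays and at 9.25 to 10.25 (median 9.75) in C10 arrays, a fall of 1.43 ± 0.21 (adjusted p = 4.45e-07), and its other probe set had -1.20. The fibrillin FBN2 of embryonic microfibrils fell by 0.80 and fibulin FBLN1 by 0.57. In the basement membrane 7 of 26 genes rose and 3 fell (median -0.016), with 5 that fell without C10 65. Here LAMA1, the laminin chain of early embryos, was at 7.19 to 8.23 (median 7.78) in C13 arrays and at 8.73 to 9.77 (median 9.01) in C10 arrays and fell by 1.38 ± 0.20 (adjusted p = 7.23e-07), whereas LAMA4 rose by 0.65, LAMA2 by 0.51 and collagen COL4A1 by 0.73. The laminin receptor subunit ITGA6 rose by 0.73 and ITGA8 fell by 0.62.

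Limb patterning factors specify the identity and position of limb mesenchyme. Their list also held factors of early development such as HMGA2 and LIN28B. Of its 42 measured genes 20 fell and 2 rose (median -0.44). Only 8 of the 42 had a mean level above 9.766, the 95th percentile of background probe sets, so changes of the dimmer members are less certain. Differences ran from -1.29 to 1.63, so that the largest single difference was an increase. The genes named below are all among those that were lower in C13. The mean over the list had a median of 8.20 in C13 arrays and 8.59 in C10 arrays, and no C13 array reached the lowest C10 value of 8.48. HOXA10 was at 8.97 to 9.50 (median 9.03) in C13 arrays and at 10.03 to 10.42 (median 10.23) in C10 arrays (difference -1.14 ± 0.11, adjusted p = 2.21e-11). PRRX1, a marker of limb bud mesenchyme, was at 9.46 to 10.49 (median 10.15) in C13 arrays and at 11.07 to 11.55 (median 11.40) in C10 arrays, and fell by 1.29 ± 0.14 (adjusted p = 9.75e-10). Its paralog PRRX2 fell by 1.28. The hindlimb selectors TBX4 and PITX1 fell by 1.25 and 1.20, and HOXC11 and HOXA11 by 1.13 and 0.99. HMGA2 and LIN28B, 2 factors of early development that are turned down with age in many tissues, fell by 0.73 and 0.61. With C13 39 and C13 40 left out, 18 members fell and 3 rose.

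Among 61 genes of WNT, FGF, BMP, Notch and hedgehog signalling, 26 fell and 6 rose (median -0.19). The ligands WNT7A and WNT11 fell by 1.76 and 1.21, and the WNT potentiator RSPO2 by 1.45. Extracellular inhibitors fell too: the WNT antagonist DKK2 was at 8.31 to 9.52 (median 9.18) in C13 arrays and at 10.34 to 11.23 (median 10.62) in C10 arrays (difference -1.60 ± 0.13, adjusted p = 1.64e-13), SFRP1 fell by 1.02 and the BMP antagonist GREM1 by 1.23. In the nucleus, LEF1, which carries the WNT signal to its targets, fell by 1.57 ± 0.24 (adjusted p = 1.31e-06), with its lowest values of 8.85 and 8.51 in C13 39 and C13 40. Of the hedgehog pathway, the receptor PTCH1 fell by 0.90 and the factors GLI3 and GLI2 by 0.89 and 0.71. GLI3 was at 10.35 to 10.76 (median 10.56) in C13 arrays and at 11.33 to 11.50 (median 11.45) in C10 arrays, with a narrow spread in both groups. Rising members included FGF13 (0.95), an FGF homologue that acts inside the cell, and FGF6 (0.44), an FGF of skeletal muscle. FGF6 had 0.32 (adjusted p = 0.0523) with C13 39 and C10 65 left out, and missed the threshold with the number series as a term (adjusted p = 0.0737) and in the 16 arrays alone (adjusted p = 0.0655).

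Of 28 growth factor and hormone genes 7 rose and 3 fell, with 3 that rose without C10 65, 4 each without C10 64, C13 41 or C13 42, and 3 with the number series as a term. Follistatin FST, which binds myostatin, was at 7.92 to 8.25 (median 8.09) in C13 arrays and at 8.55 to 9.07 (median 8.72) in C10 arrays, and fell by 0.70 ± 0.10 (adjusted p = 1.83e-07). IGF2 fell by 0.51. IGF1 rose by 0.44 (adjusted p = 0.0241), with 0.28 (adjusted p = 0.102) without C10 65, whose 7.84 was the lowest value. Its adjusted p was 0.0862 with the number series as a term and 0.0909 in the 16 arrays alone.

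**Figure D3:**
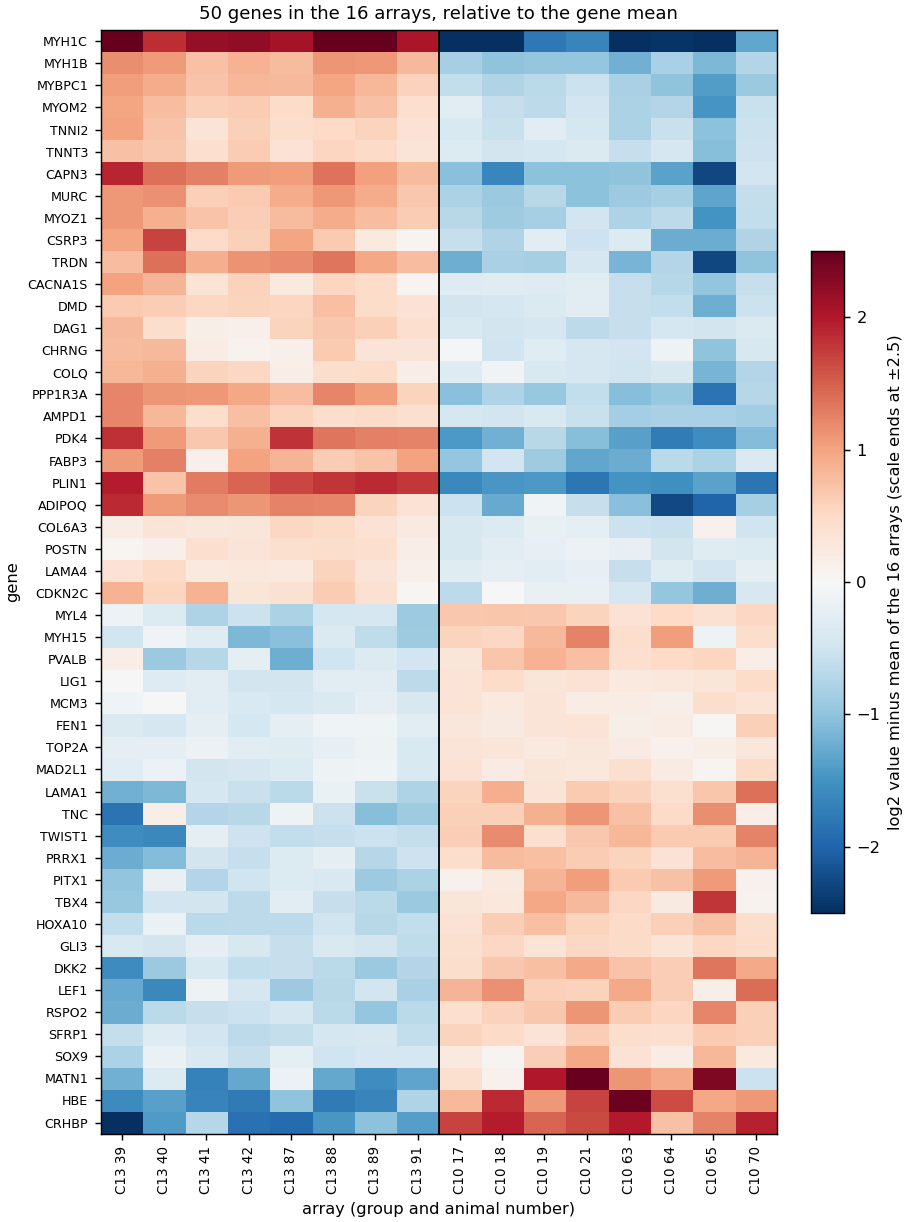
Log2 value of 50 genes (rows) in the 16 arrays (columns, 8 C13 left of the line and 8 C10 right of it, with animal numbers), relative to the mean of each gene, red for higher and blue for lower. Sarcomere, metabolic and adipocyte genes in the upper rows are higher in C13, and MYL4, cell cycle, limb and signalling genes in the lower rows are higher in C10, with MYH1C (difference 4.62) the deepest contrast and C10 65 palest or bluest in many muscle rows.

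Other cell types in the sample were followed by their markers. Adipocyte markers rose in 5 of 10 cases and fell in 2 (median 0.38), and their mean lay between 9.21 and 9.72 in C13 arrays and between 8.45 and 8.89 in C10 arrays. PLIN1, the coat protein of lipid droplets, was at 9.60 to 10.85 (median 10.61) in C13 arrays and at 7.06 to 7.55 (median 7.38) in C10 arrays (difference 3.13 ± 0.27, adjusted p = 1.3e-12). Its 3 other probe sets had differences of 2.36, 1.21 and 0.82. Adiponectin ADIPOQ was at 8.66 to 10.16 (median 9.43) in C13 arrays and at 6.04 to 8.21 (median 7.35) in C10 arrays, and rose by 2.15 ± 0.23 (adjusted p = 5.83e-10). The fatty acid transporter CD36 rose by 1.24 and lipoprotein lipase LPL by 0.73. PPARG, the master factor of fat cells, had a difference of 0.34 (adjusted p = 0.37), and the early adipocyte factor EBF1 fell by 0.44.

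Among the haemoglobins HBE changed most. HBE, a β-type embryonic chain, was at 8.10 to 9.13 (median 8.26) in C13 arrays and at 10.68 to 12.32 (median 11.23) in C10 arrays and fell by 2.89 ± 0.32 (adjusted p = 1.73e-09). HBZ, the embryonic α-type chain, fell by 1.28 on one probe set and had a difference of -0.068 on its other. HBA1 and HBAD, the α-type chains also used later, did not pass the test, with differences of -0.17 (adjusted p = 0.138) and -0.22 (adjusted p = 0.141). Of 11 erythroid markers 3 fell, the transferrin receptor TFRC (-0.44) being the third, and its other probe set had -0.031.

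Cartilage markers fell in 10 of 18 cases and rose in 2, with a median of -0.75, but spread widely between embryos. Only 3 of the 18 had a mean level above 9.766, the 95th percentile of background probe sets. The cartilage matrix protein MATN1 was at 5.67 to 7.22 (median 6.08) in C13 arrays and at 6.82 to 9.84 (median 8.38) in C10 arrays (difference -2.20 ± 0.48, adjusted p = 0.000328). COL9A1 was at 5.27 to 9.44 (median 5.63) in C13 arrays and at 6.07 to 10.23 (median 9.06) in C10 arrays (difference -2.22 ± 0.70, adjusted p = 0.0137). Both genes overlapped between the groups. The highest MATN1 value in C13 (7.22) lay above the lowest in C10 (6.82). For COL9A1, C13 87 and C13 40 had values of 9.44 and 9.17, near the C10 median. COL9A1 had -1.95 (adjusted p = 0.0507) with C13 39 and C10 65 left out. The cartilage factor SOX9 fell by 0.88 with no overlap. Aggrecan ACAN had a difference of -1.73 (adjusted p = 0.0289) that kept its direction but missed the threshold without C10 19, C10 21, C10 65, C13 89 or C13 91, each left out alone (differences of -1.62, -1.49, -1.51, -1.59 and -1.54). The threshold was also missed with the number series as a term and in the 16 arrays alone. With C13 39 and C10 65 left out 5 cartilage markers fell, and within the lower and the higher number series 2 and 1. The mean of the list was 7.54 to 8.85 in C13 arrays and 8.01 to 9.44 in C10 arrays. The part of cartilage in the falls of limb and signalling genes was not tested.

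Of 14 skin and feather markers none passed the test (median 0.27), with 2 rising once C13 39 and C13 40 were left out. The basal keratin KRT5 had a difference of -0.18 (adjusted p = 0.9), with 6.89 in C13 39, 5.92 in C13 40, at least 10.09 in the other C13 arrays and 8.76 to 10.33 in C10 arrays, and the epidermal factor TP63 had -0.14 (adjusted p = 0.816). Tendon markers went both ways, 2 of 7 up and 2 down. CHODL fell by 1.17 with no overlap, and the tendon membrane protein TNMD fell by 0.75, with -0.43 (adjusted p = 0.0697) once C13 39 and C10 65 were left out. FMOD had a difference of 0.79 (adjusted p = 0.0521). Endothelial markers rose in 4 of 12 cases and fell in 2, with differences from -0.33 to 0.48. Rises were 0.48 for VWF, 0.43 for PECAM1 and 0.37 for ESAM, which all missed the threshold within each number series alone. Of the 4 that rose, 2 were also called upwards in both warmed and cooled embryos. Of 12 nerve and Schwann cell markers 4 rose and 4 fell: the neural crest factor FOXD3 rose by 1.19 and the myelin protein PMP22 by 0.54, while the glial factor SOX10 fell by 0.48. Of 8 smooth muscle markers 3 rose and 1 fell, ITGA8 with -0.62. Smooth muscle myosin MYH11 was at 8.45 to 10.44 (median 9.93) in C13 arrays and at 7.31 to 9.05 (median 8.31) in C10 arrays. It rose by 1.48 ± 0.26 (adjusted p = 1.75e-05), with 1.65 on its other probe set. MYH11 missed the threshold within the lower number series alone. Leukocyte markers had call counts near the background, with 2 of 15 up (PTPRC, 0.50, and CD44, 0.51) and 2 down. Their differences ran from -1.06 to 0.51, and 0 of the 15 had a mean level above 9.766, the 95th percentile of background probe sets.

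Most of the largest rises belonged to genes known by a locus number alone. Among the 12 genes with the largest difference of signal upwards and separate groups, 11 carried a LOC number, for which the annotation used gives no name, and MYH1C was the other. LOC431324 was at 18.15 to 20.40 (median 19.32) in C13 arrays and at 6.45 to 6.91 (median 6.57) in C10 arrays, with a difference past the threshold (adjusted p = 4.29e-11). Its C13 values exceeded 16, the most that an unprocessed 16-bit scanner signal can reach on the log2 scale, as values of 6 probe sets did in these arrays, and its C10 values lay below the background level of 9.766. No size is therefore given for its change. LOC100859249 was at 12.52 to 14.47 (median 13.45) in C13 arrays and at 6.36 to 8.03 (median 7.02) in C10 arrays (difference 6.35). LOC431323, LOC426913, LOC100858100 and LOC426957 rose by 5.65, 5.24, 5.21 and 5.01, and LOC431321, LOC772080, LOC100859427, LOC100858797 and LOC769139 by 4.60, 4.55, 4.52, 4.37 and 3.97. In the gene order of the GRCg7b annotation, 6 of these 11 lay within a run of 11 neighbouring genes. Of the run 7 genes were measured and all 7 rose. The run was drawn around the 6 genes, which had been picked for their rise, so this count is no separate evidence. Near-identical neighbours may share probe signal.

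These genes were high in every C13 array, but not equally. LOC431324 had its lowest C13 values, 18.15 and 18.22, in C13 39 and C13 40, the arrays with the lowest skin marker means. TGM3, a transglutaminase of the epidermis chosen here after its values were seen, was at 6.42 and 5.56 in these arrays, against 8.31 to 9.85 in the other C13 arrays and 4.07 to 5.01 in C10 arrays. It rose by 3.59 ± 0.61 (adjusted p = 8.43e-06). ABCA12, a lipid transporter of the skin barrier, and SERPINB5 followed it, with rises of 2.86 and 2.82 and overlapping groups. CA3A, named as a carbonic anhydrase and also chosen after its values were seen, ran the other way within C13, with 10.56 and 10.59 in C13 39 and C13 40, 7.09 to 9.42 in the other C13 arrays and 5.12 to 6.56 in C10 arrays (difference 3.51 ± 0.43, adjusted p = 1.26e-08). MYH7 had its highest C13 values, 10.78 and 10.59, in the same arrays. A fit that also held each array's mean of skin markers gave differences of 3.44 for TGM3, 3.62 for CA3A and 0.89 for MYH7. That mean was at 6.50 to 10.22 in C13 arrays, around the 8.05 to 9.60 of C10 arrays. None of the 14 listed skin and feather markers passed the test between the groups, unlike TGM3, ABCA12 and SERPINB5, which are not on that list. Such a fit can hardly move a difference between the groups, so the part of skin in these rises was not tested. Without C13 39 and C13 40 the differences of TGM3, CA3A and MYH7 were 4.36, 3.00 and 0.63. AQP4, a water channel of the muscle membrane, and AHSG, fetuin A, were also chosen after their values were seen. AQP4 was at 9.16 to 9.80 (median 9.37) in C13 arrays and at 6.04 to 6.73 (median 6.37) in C10 arrays, a rise of 3.04 ± 0.15 (adjusted p = 2.87e-19) with a narrow spread, and AHSG rose by 3.26.

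**Figure D4:**
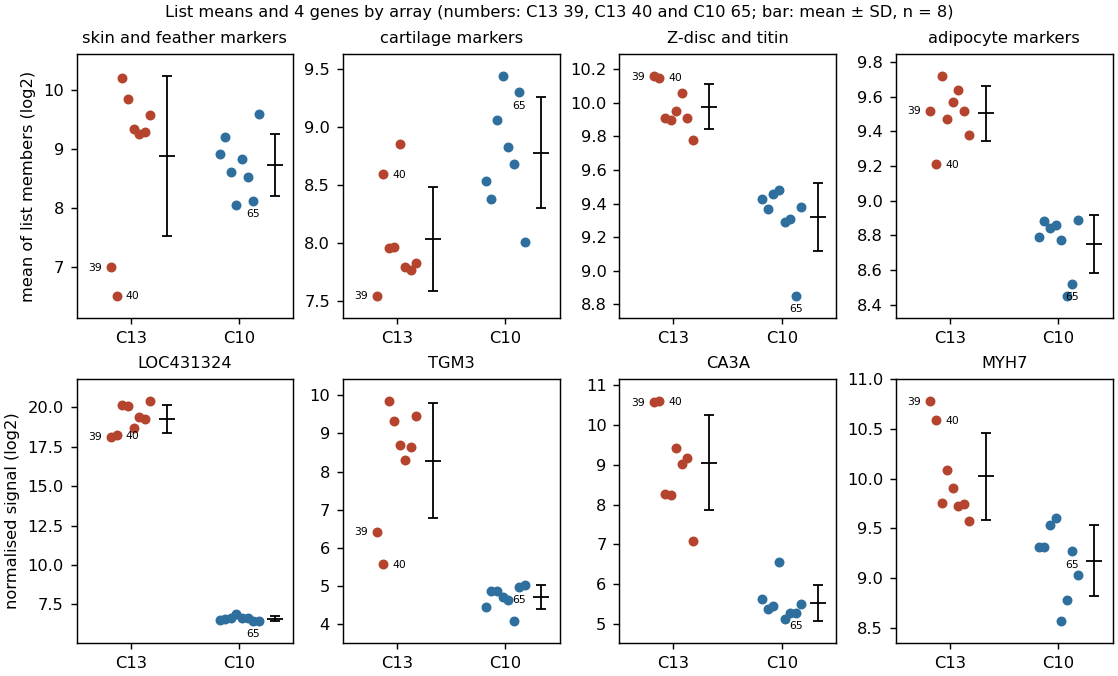
Mean log2 value of 4 lists (upper row) and log2 value of 4 genes (lower row) in C13 (left, red) and C10 arrays (right, blue), 1 point per embryo with mean ± SD, and the points of C13 39, C13 40 and C10 65 numbered. C13 39 and C13 40 lie lowest among C13 arrays for skin markers, LOC431324 and TGM3 and highest for CA3A and MYH7, and C10 65 lies lowest for the Z-disc list (8.85).

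The largest falls among genes with separate groups were more varied in kind. CRHBP, which binds corticotropin-releasing hormone, was at 5.89 to 8.00 (median 7.28) in C13 arrays and at 9.46 to 10.70 (median 10.40) in C10 arrays (difference -3.16 ± 0.38, adjusted p = 7.85e-09). MAB21L2, a gene of limb and eye development, was at 5.12 to 7.10 (median 6.50) in C13 arrays and at 8.28 to 9.60 (median 9.19) in C10 arrays (difference -2.71 ± 0.27, adjusted p = 8.61e-11). Separate groups were a condition of this ranking, and all MAB21L2 values lay below the background level of 9.766. The tyrosine phosphatase PTPRO fell by 2.41, and differences of -2.04 for TWIST3, a paralog of TWIST1, -1.93 for the keratin KRT24, -1.87 for the receptor PRLHR2, -1.86 for the BMP family member GDF10 and -1.82 for the retinoic acid binding protein CRABP1 also passed the test. The 12 largest falls among genes with separate groups, which leaves out COL9A1 and MATN1, were completed by HBE and by VIT (-1.94), HS3ST6 (-1.81), a heparan sulphate sulphotransferase, and GLIS1 (-1.78), a zinc finger factor. VIT was at 4.37 and 5.63 in C13 39 and C13 40 and at 8.45 to 9.55 in the other C13 arrays, and without both its difference was -0.97 (adjusted p = 0.29). Without C13 39 alone it was -1.43 (adjusted p = 0.0993) and without C13 40 alone -1.61 (adjusted p = 0.0775).

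The same stages were compared in warmed and in cooled embryos, which share no array with C13 or C10. H13 against H10 had 5512 probe sets past the threshold (26.6%) and L13 against L10 had 5170 (25%). Of the 5839 probe sets called in controls, 5636 (96.5%) had the same sign in warmed and 5738 (98.3%) in cooled embryos. The same call with the same sign was made for 3866 (66.2%) and 4052 (69.4%), and 3002 were called in all 3 comparisons. MYH1C rose by 4.95 in warmed and 4.86 in cooled embryos, against 4.62 in controls, PLIN1 by 3.33 and 3.34, against 3.13, and DKK2 had differences of -1.47 and -1.50, against -1.60. All 9 thin filament and all 17 thick filament genes that rose in controls were also called upwards in both treated groups, as were 20 of 23 Z-disc genes. Of 39 replication genes 34 were called downwards in both. In other lists, 5 of 9 rises of the respiratory chain, 4 of 10 falls of interstitial matrix and 3 of 10 falls of cartilage markers were called in both. Over all probe sets called in controls this held for 3002 of 5839. Of the limb patterning list, 18 of 20 falls and 0 of 2 rises were called in both. Among cartilage genes MATN1 fell by 1.29 in warmed and 2.12 in cooled embryos, and COL9A1 had a difference of -0.57 (adjusted p = 0.617) in warmed embryos and fell by 2.46 in cooled embryos. Their interactions with warming did not pass the test (adjusted p = 0.861 for MATN1 and 0.779 for COL9A1).

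The difference of development itself was tested as an interaction. For warmed against control embryos 2 of 20706 probe sets passed (0.00966%), and for cooled against control embryos 0 passed (0%). An unadjusted p under 0.05 was found for 1563 (7.55%) and 720 (3.48%) probe sets, where chance alone gives about 5%. With trend and robust eBayes the counts past the adjusted threshold were 4 and 0, and after quantile normalisation 11 and 0. Warmed embryos all have animal numbers of the lower series and cooled embryos of the higher series, so that in these tests series and treatment cannot be told apart unless controls of the same series are used. Against those controls no probe set passed in either test. These tests held 24 arrays each, with 4 arrays in each control group, and were less precise.

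**Figure D5:**
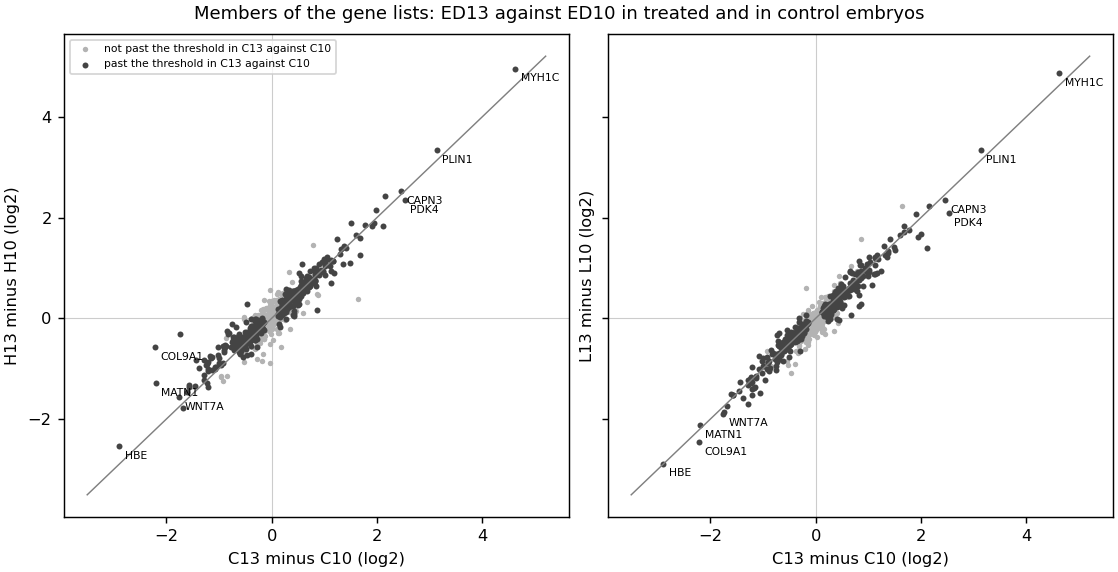
Differences ED13 minus ED10 (log2) of the members of all gene lists in warmed (left) and cooled embryos (right) on the y axis against controls on the x axis, with dark points for genes past the threshold in controls and a line of equal differences. Points follow the line in both panels, with MYH1C at 4.95 and 4.86 against 4.62, and COL9A1 lies off it in warmed embryos (-0.57 against -2.22).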

How the data were processed

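The authors deposited normalised log2 signals per probe set of an Affymetrix chicken gene array, with 1 animal per array. The processing notes name GCOS 1.1.1, and the summarisation, normalisation and genome build are not given in the sources used here. The 20706 probe sets other than the 98 controls were tested without a filter on level. Most lie below 9.766, the 95th percentile of 23 background probe sets (median 5.59), so folds of dim genes are uncertain. In limma 3.58.1 (R 4.3.3) a mean per group was fitted to the 48 embryo arrays (42 residual degrees of freedom), with eBayes moderation, two-sided p and Benjamini-Hochberg adjustment at 0.05. Errors are SE unless named. Probe sets took symbols from the array annotation (12300 with 1, 256 with several, 8150 with none), and 897 probe sets repeat the values of another. The probe set with the highest mean stood for a gene. Lists matched by exact symbol (696 of 1057 symbols). The members and lists were chosen with earlier results of these data known. Named were the 12 largest changes per direction with separate groups, up to 4 members per list with the smallest adjusted p, marker genes and isoform pairs. Other genes were chosen after their values were seen. Embryos are separate animals; the arrays' number limits the precision. The fit was tested on simulated data. Alternatives were the 16 arrays alone, 2 scalings, a filter on dim probe sets, other moderation and weights, number series, skin and W-linked covariates, and leaving out arrays. Leaving out C13 39 with C10 65, and C13 39 with C13 40, was added after seeing the data. Plots used Python 3.11.15 and matplotlib 3.10.9.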

Additional observations from a re-analysis of the deposited data

Results flagged for a closer look

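Among 428 groups of 8 values, 53 had a lowest or highest array far from the others (gap over range above 0.526, Dixon), where chance gives about 1 in 20 groups, or 21.4. Of these, 34 belonged to C10 65. Its log2 values of muscle genes lay below the other C10 arrays: MYH1A 6.94, MYH1D 11.50, MYL3 10.89, MYBPC3 9.98, MYOM2 9.56, MYOM3 10.04, TNNT3 10.40, XIRP1 9.82, MYOZ1 9.45, ACTN2 10.98, TTN 11.73, TRDN 6.38, CASQ2 10.75, DMD 8.93, LAMA2 10.01, MYOD1 10.51, MYOG 8.56, PAX7 9.54, PPP1R3A 5.89, PFKM 6.93, PPARGC1A 7.33 and NDUFS6 8.12. It was also lowest for MKI67 (11.05), RPS29 (11.87), COL4A1 (9.43), HMGA2 (11.02), IGF1 (7.84) and FOXD3 (6.68). Its means of tendon markers (10.18) and interstitial matrix genes (11.38) were the highest among C10 arrays. Its list means stood apart for myogenic regulators (9.79), thin filament (10.13), Z-disc and titin (8.85), excitation-contraction coupling (7.94), mitosis (9.34) and nerve and Schwann cell markers (7.72).

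Other C10 arrays stood apart for ANXA1 (6.72) and PYGB (8.83) in C10 64, for BTG1 (12.27), WNT11 (11.86), KRT24 (9.97) and the DNA replication mean (9.89) in C10 70, and for LOC431324 (6.91) and CA3A (6.56) in C10 21. Among C13 arrays, C13 39 stood apart for MKI67 (11.23), ITGA8 (8.93), DKK2 (8.31), IGF2 (7.68), TNMD (8.64) and GDF10 (5.69), C13 40 for ACSL1 (9.46) and HOXA10 (9.50), C13 91 for RRM1 (10.28) and EBF1 (10.38), and C13 42 for LPL (9.51).

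The change between the stages differed between warmed and control embryos for 2 probe sets. NDFIP2, an adaptor of ubiquitin ligases, had an ED13 minus ED10 difference of 0.27 in warmed embryos and -0.077 in controls, an interaction of 0.35 ± 0.066 (limma, adjusted p = 0.0345). Probe set 15430274, which has no symbol, had -0.19 in warmed embryos and 0.22 in controls, an interaction of -0.41 ± 0.066 (adjusted p = 0.00293). Against controls of the same number series alone the interactions were 0.39 ± 0.084 and -0.36 ± 0.086 (limma, adjusted p = 0.736 for both). This fit held 24 arrays, and its errors were larger.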

How the results depend on the processing

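The number of called probe sets, 5839, became 2093 with dim probe sets left out (4121 tested), 2282 within the lower and 1934 within the higher number series, with fewer probe sets or arrays by construction. Those that rose became 841, 1017 and 945, those that fell 1252, 1265 and 989, and those with a difference of at least 1 became 132 without dim probe sets. Leaving out 1 array gave 5481 to 5847 called, 2111 to 2667 that rose, 3076 to 3678 that fell and 534 to 615 of at least 1. The interaction with warming was called for 11 probe sets after quantile normalisation and 4 with trend and robust eBayes, and the cause was not tested. Of 169 called genes named, 36 missed the threshold within the lower series and 35 within the higher, with none reversed. Values without a call changed sign in some settings: MYBPC3 0.012, MYOD1 0.067, PAX7 0.045, KRT5 0.63 and TP63 0.035 within the higher series, CHRND -0.018 within the lower, ACTC1 -0.014 and MKI67 -0.0052 after quantile normalisation. With C13 39 and C10 65 left out CHRND was -0.047, KRT5 0.088 and TP63 0.00047, and with C13 39 and C13 40 left out CHRND was -0.0049, KRT5 0.84, TP63 0.27 and DSG2 0.26 (both settings were chosen after seeing the data). XIRP1 was -0.03 on its dimmer probe set. Leaving out 1 array gave -0.13 to 0.014 for PAX7, -0.0012 to 0.14 for MKI67, -0.40 to 0.33 for KRT5 and -0.27 to 0.038 for TP63. No paired analysis was possible because each embryo was sampled at 1 stage and C13 and C10 share no animal number. Signals near background limit the folds of dim genes, and 8 arrays per group limit the precision.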
